A study of Drosophila melanogaster with 30 samples.

Results

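The ecdysone receptor and response genes described here are 10 Drosophila melanogaster genes chosen by name: the receptor subunits EcR and usp, the early genes br, Eip74EF, Eip75B and Eip78C, and the genes ImpE1, ImpE2, ImpE3 and ImpL2. Each was matched to the entry of the authors' RNA tables that overlapped its RefSeq gene reciprocally by more than 0.9. By this rule 9 of the 10 genes had an entry of their own in both sexes, among 10775 female and 11505 male entries. The exception, usp, lay within a longer entry shared with its neighbour Actn and is described apart.

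RNA came from wing imaginal discs of newly wandering third-instar larvae, with 3 libraries of 30 discs for each of 4 groups: HWT females, H4K16R females, HWT males and H4K16R males. All these larvae were homozygous for ΔHisC, which removes the endogenous replication-dependent histone genes, and carried twi-GAL4 and UAS-2xEYFP, whose fluorescence marked the larvae to pick. Histones were supplied by a transgene of 12 repeats of 5 kb, wild type in HWT and with lysine 16 of histone H4 changed to arginine in H4K16R. Replication timing was also measured in HWT and H4K16R discs of both sexes, in female discs with lysine 9 of histone H3 changed to arginine on the same background (H3K9R), and in females of the genotype yw. Both HWT and the mutants thus take these histones from a transgene array and not from the native locus.

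Ecdysone is the steroid hormone of insect moulting and metamorphosis. Its receptor is a dimer of the nuclear receptors EcR and Ultraspiracle, the product of usp, which binds DNA with or without hormone and switches from repression to activation when hormone is bound. The early genes encode transcription factors that the receptor induces directly and that pass the signal to later genes. ImpE and ImpL genes were isolated as messages on membrane-bound polysomes that the hormone induces early or late in imaginal discs, the sacs that evert and form the adult wing at metamorphosis.

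For each entry the RNA files hold a fold change on the log2 scale with its adjusted p, and no level or value per library. Fold changes were read as H4K16R over HWT, a direction the headers do not state. Unadjusted p were recovered by reversing the adjustment, and those given below as by edgeR are these recovered values. Standard errors (SE) and 95% intervals were recovered from the fold change and the adjusted p, and an adjusted p under 0.05 was taken as a call. The labels do not say that libraries came from separate crosses, so the spread behind the p-values is that between libraries and may be technical. A whole disc was measured, so fewer cells of a type and less RNA per cell cannot be told apart.

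In females, 3 response genes were higher in H4K16R and the receptor and the other early genes did not pass. The authors' deposited table called 3 of the 9 genes higher and 0 lower, where 0.362% of all entries were higher and 0.613% lower. At an unadjusted p under 0.05, recovered from the authors' edgeR values, 4 were higher and 0 lower, against 5.7% and 5.92% of all entries. Fold changes of 8 of the 9 lay above 0, against 49.5% of all entries, and their median was 0.28 on the log2 scale. In males the pattern differed from gene to gene. There the authors' deposited table called 1 of the 9 higher and 2 lower, where 5.35% of all entries were higher and 10.3% lower. Of entries on the large autosomes, which hold all 3 of these genes, 6.09% were higher and 3.39% lower in males. At an unadjusted p under 0.05, 1 was higher and 3 were lower in males by edgeR, against 11.5% and 15.3% of all entries. Male fold changes of 4 of the 9 lay above 0, against 52.8% of all entries, and their median was -0.06.

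**Figure D1:**
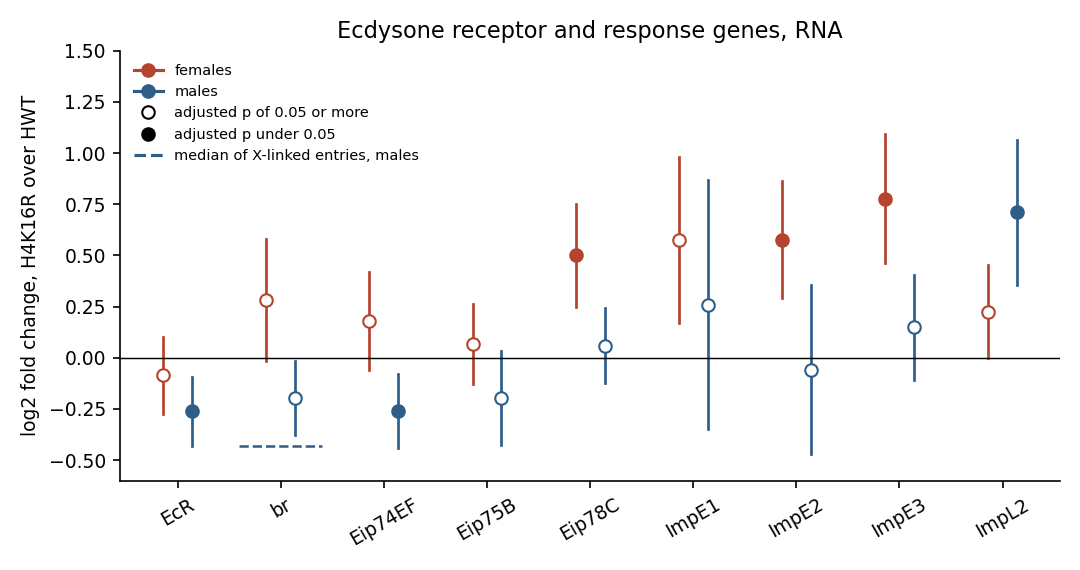
Log2 fold change of RNA (H4K16R over HWT, vertical axis) for the 9 genes with an entry of their own, in females (red) and males (blue). Points are the authors' values, filled where the adjusted p was under 0.05, bars are recovered 95% intervals, and the dashed line is the male median of X-linked entries, -0.43. Filled points above 0 are Eip78C, ImpE2 and ImpE3 in females and ImpL2 in males, and filled points below 0 are EcR and Eip74EF in males.

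The receptor gene EcR was lower in H4K16R males. It lies at 2R:6087873-6169087 (dm6), and for males the authors' deposited table gave a log2 fold change of -0.26 (recovered SE 0.087, adjusted p = 0.022). EcR RNA thus fell by 16.6% from HWT. In females the authors' deposited table gave -0.09 (recovered SE 0.095, adjusted p = 0.81). The male minus female difference of -0.17 had an interval from -0.43 to 0.08 (z test, adjusted p = 0.47), so the call in males does not show a difference between the sexes. Other entries lie inside EcR, that of CG14589 and that of lncRNA:CR43904, and neither passed in either sex of the authors' deposited tables.

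No value could be given to usp alone. The gene is X-linked and lies at X:2038798-2042311 (dm6), and the entry that covers it, X:2023822-2042311, also holds Actn, the gene of the actin cross-linker alpha-actinin, and mir-4954. The gene usp makes up 19.0% of that entry's length. In the authors' deposited table of males the joint entry had a log2 fold change of -0.52 (recovered SE 0.10, adjusted p = 2.67e-05), and in that of females -0.0033 (adjusted p = 0.99). The male value lies near the median of X-linked entries, -0.43, and 44.6% of X-linked entries were called lower in males. Which share of the reads came from usp is not given.

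Among the early genes, 1 was higher in females and 1 lower in males. Eip78C encodes a nuclear receptor related to vertebrate Rev-Erb and lies at 3L:21226609-21266503. Its log2 fold change was 0.50 in the authors' deposited table of females (recovered SE 0.13, adjusted p = 0.018), an increase of 41.4% over HWT, and higher than that of 93.5% of entries with a gene name. The value lies just under 0.5 and was not called where a fold change of at least that size was also required. In males the authors' deposited table gave 0.06 (adjusted p = 0.74). Another entry inside the gene, that of CG43218, had 0.59 in females and 0.34 in males in the authors' deposited tables, neither called.

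Eip74EF encodes an ETS-domain factor and lies at 3L:17558672-17619325. Its male log2 fold change was -0.26 by the authors' deposited table (recovered SE 0.092, adjusted p = 0.034), so its RNA fell by 16.4% from HWT. For females the authors' deposited table gave 0.18 (recovered SE 0.12, adjusted p = 0.62). An entry of 121 bases inside Eip74EF had -0.44 in females (adjusted p = 0.86) and -2.24 in males (adjusted p = 0.085) in the authors' deposited tables. Another, in males, overlaps the gene's lower-coordinate end and holds Nedd4 and CycT, with 0.04 in the authors' deposited table (adjusted p = 0.73). Eip75B, at 3L:17950953-18064696, encodes the heme-binding nuclear receptor E75, also related to Rev-Erb. It had 0.07 in females (adjusted p = 0.87) and -0.20 in males (adjusted p = 0.28) in the authors' deposited tables and passed in neither sex.

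The X-linked gene br encodes the Broad zinc-finger factors, which specify pupal development. Its female entry spans X:1574895-1664869, with a log2 fold change of 0.28 (recovered SE 0.15, adjusted p = 0.46) in the authors' deposited table. In males the authors' deposited table gave -0.20 (recovered SE 0.092, adjusted p = 0.14) for an entry at X:1574906-1664869. The male value lay 0.24 above the median of X-linked entries and above 78.1% of the 1560 X-linked entries with a gene name. In females br lay above 89.2% of 1574 such entries. Its male minus female difference was -0.48 as deposited and -0.05 once each sex's X median was taken off (z test, adjusted p = 0.072 and 0.95).

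More entries lie inside br than inside any other of the 10 genes. Of 26 further entries in females, 26 had fold changes above 0 in the authors' deposited table, from 0.09 to 0.54 and had a median of 0.35. Of 29 in males, 22 lay below 0 and 7 above, from -0.41 to 0.21 and had a median of -0.09, as the authors' deposited table gives them. None was called in the authors' deposited tables, where the lowest adjusted p was 0.29 in females and 0.060 in males. These entries share reads with the entry of the whole gene, and often with each other, and are not independent measurements of br.

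**Figure D2:**
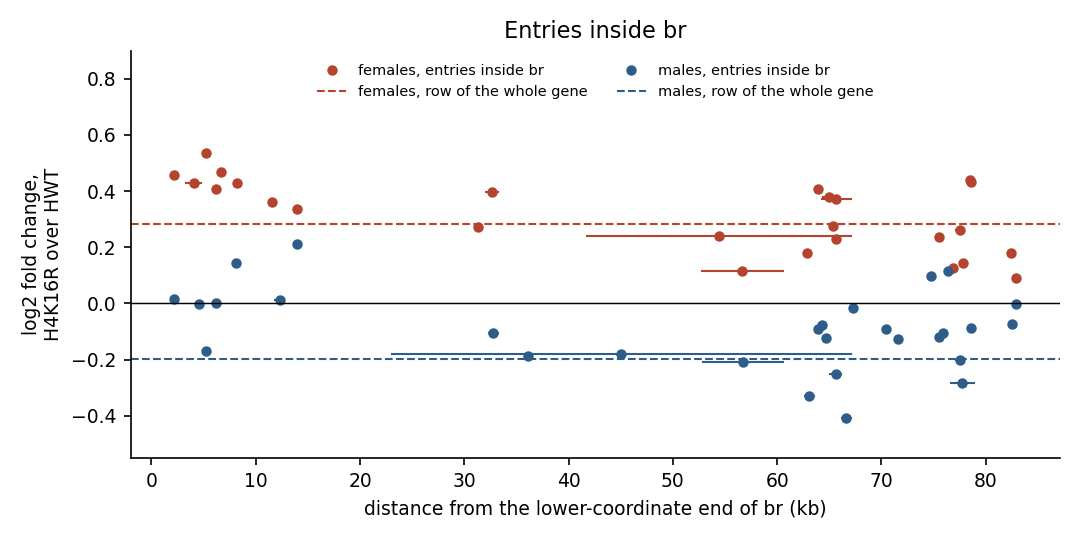
Log2 fold change (H4K16R over HWT, vertical axis) of entries inside br against their distance from the lower-coordinate end of the gene (kb), for 26 entries in females (red) and 29 in males (blue). Points are entry midpoints, short lines the extent of an entry, and dashed lines the entry of the whole gene. All 26 female points lie above 0, and 22 of the 29 male points lie below it.

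The ImpE genes were the highest of the group in females. ImpE3, a gene of 1094 bases at 3R:8028453-8029546, had a log2 fold change of 0.78 in the authors' deposited table of females (recovered SE 0.16, adjusted p = 0.0010). This corresponds to 1.71-fold the HWT level and lies above 96.8% of entries with a gene name. A shorter entry within it had 0.75 (adjusted p = 0.0046) and a longer one, shared with CG2747, had 0.41 (adjusted p = 0.042), both in the authors' deposited table of females. These entries overlap that of ImpE3, share reads with it and are not independent measurements of the gene. In males the authors' deposited table gave ImpE3 a log2 fold change of 0.15 (recovered SE 0.13, adjusted p = 0.50).

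ImpE2 encodes a protein that disc cells secrete at their apical side, and lies at 3L:3510974-3512681. Its female log2 fold change was 0.58 in the authors' deposited table (recovered SE 0.15, adjusted p = 0.014), or 1.49-fold. In males the authors' deposited table gave -0.06 (recovered SE 0.21, adjusted p = 0.89). The male table also holds longer entries over ImpE2, of 40160 and 278085 bases with 3 and 46 genes in them. Their log2 fold changes were -0.06 and -0.02 in the authors' deposited table, and reads of ImpE2 cannot be told apart from those of the other genes there. ImpE1, at 3L:8372405-8391171, had a female value as high as that of ImpE2, 0.58 (recovered SE 0.21), in the authors' deposited table, with a wider error (adjusted p = 0.17). Its male value of 0.26 in the authors' deposited table had a recovered SE of 0.31 (adjusted p = 0.64).

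ImpL2 rose in males, and its difference between the sexes did not pass (z test, adjusted p = 0.15). It encodes a secreted immunoglobulin-family protein that binds insulin-like peptides and dampens insulin signalling, and lies at 3L:4224006-4236147. In the male table deposited by the authors its log2 fold change was 0.71 (recovered SE 0.18, adjusted p = 0.0016), or 1.64-fold, above 90.3% of entries with a gene name. The authors' deposited table of females gave 0.23 (recovered SE 0.12, adjusted p = 0.44). No other entry overlaps ImpL2 in either table, though the annotation places CG46460 within it.

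The H4K16R effect was compared between the sexes by a z test of male minus female fold changes over 8846 genes with an entry in both tables. The effect was lower in males for 5.69% of these and higher for 2.18%. For genes of the large autosomes alone these shares were 1.58% and 2.5%. Of the 9 ecdysone genes, 1 had a lower effect in males, ImpE3. Its difference was -0.63 on the log2 scale (SE 0.21, interval -1.03 to -0.22, z test, adjusted p = 0.038). That call rests on a normal distribution for the recovered statistic and was lost with a t distribution of 4 degrees of freedom (adjusted p = 0.10). Eip74EF (-0.44, adjusted p = 0.051), Eip78C (-0.44, adjusted p = 0.062), br (-0.48) and ImpE2 (-0.64, adjusted p = 0.10) missed the threshold by the z test. Each sex's median was then taken off, that of the X for X-linked genes and that of the pooled large autosomes for the rest. Eip74EF and Eip78C then passed together with ImpE3 (z test, adjusted p = 0.030, 0.040 and 0.029). The share of all genes that passed after this step was not counted. These calls thus have no share over all genes to be set beside.

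Differences of the remaining genes did not pass either. ImpL2 had 0.49 with an interval from 0.06 to 0.91 (z test, adjusted p = 0.15), the one positive difference of the 9. ImpE1 had -0.32 with an interval from -1.05 to 0.41, and Eip75B -0.26 with an interval from -0.57 to 0.04 (z test, adjusted p = 0.69 and 0.33). Of the 8 autosomal genes, 7 had the lower fold change in males, against 41.3% of 7282 genes on the large autosomes. Their median difference was -0.38, against 0.07 for genes of the large autosomes. The genes were chosen with earlier results of these tables known, so these counts describe them and test nothing.

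**Figure D3:**
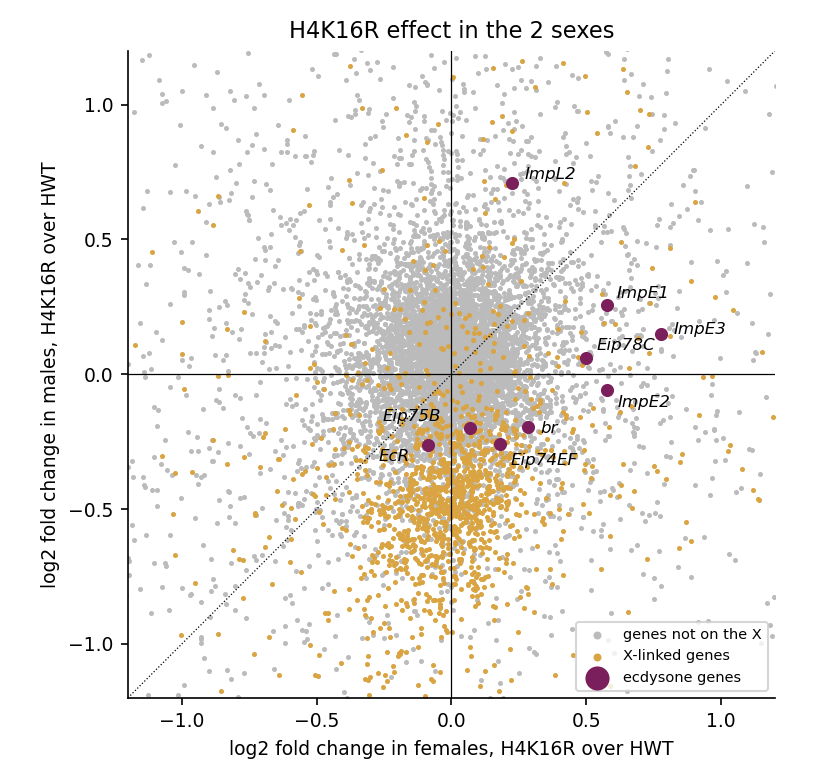
Log2 fold change (H4K16R over HWT) in males (vertical axis) against females (horizontal axis) for genes with an entry in both tables, X-linked in yellow and others in grey, within 1.2 of 0 on both axes (8108 of 8846 genes). The 9 ecdysone genes are purple and the dotted line marks equal effects. All but ImpL2 lie below the dotted line, and br lies among the upper X-linked genes.

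Among other genes of the pathway, calls in males were near the shares over all entries. In females 0 were called, though at an unadjusted p more were higher than the share over all entries. The lists held 48 genes in all, namely 11 further ecdysone-regulated transcription factors, 12 other inducible genes, 12 receptor coregulators and 13 genes of hormone supply. In females 44 were measured and 0 passed in either direction in the authors' deposited table, where 0.362% of all entries were higher and 0.613% lower. By edgeR, at an unadjusted p under 0.05, 8 of the 44 were higher and 3 lower, against 5.7% and 5.92% of all entries. In males 42 were measured, of which the authors' deposited table called 2 higher and 5 lower, against 5.35% and 10.3% of all entries. Of the 42, at an unadjusted p under 0.05 by edgeR, 5 were higher and 5 lower, against 11.5% and 15.3%. Fold changes of 23 of the 44 lay above 0 in females and of 25 of the 42 in males.

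Of the 11 measured transcription factors, 2 were called lower and 0 higher in males. Over all entries 10.3% were lower and 5.35% higher in males. On the large autosomes, which hold these 2 genes, 3.39% were lower. Hr39, a nuclear receptor of the FTZ-F1 family, had -0.29 on the log2 scale in males (adjusted p = 0.019) by the authors' deposited table. Kr-h1, a zinc-finger factor of juvenile hormone signalling, had -0.26 in the authors' deposited table (adjusted p = 0.020). The list median was 0.07 in males and -0.03 in females, against 0.02 and -0.0032 over all entries of the authors' deposited tables. At an unadjusted p under 0.05 by edgeR, 4 of the 11 were higher and 2 lower in females, against 5.7% and 5.92% of all entries. In males 1 was higher and 2 were lower at that unadjusted p, against 11.5% and 15.3%. The male minus female difference of Hr39 was -0.49 (SE 0.14, z test, adjusted p = 0.010).

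Named after its values were seen, chinmo, whose BTB-domain factor acts before Broad in the sequence of developmental factors, passed in neither sex alone. It had -0.74 in females (adjusted p = 0.17) and 0.66 in males (adjusted p = 0.18) in the authors' deposited tables. The male minus female difference of 1.40 passed (SE 0.42, z test, adjusted p = 0.020).

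Coregulators that were lower in males were all X-linked. The CBP acetyltransferase gene nej had a log2 fold change of -0.53 (adjusted p = 2.51e-05), the histone H3 lysine methyltransferase gene trr -0.47 (adjusted p = 8.37e-04) and the corepressor gene Smr -0.37 (adjusted p = 0.0010) in the authors' deposited table of males. These lie around the X median of -0.43. With the X median of each sex taken off, the male minus female differences of nej, trr and Smr were 0.02, -0.03 and -0.0094. The autosomal Hsc70-4, a chaperone of the complex that readies the receptor for DNA binding, rose by 0.41 in males (adjusted p = 6.83e-04) in the authors' deposited table. All 11 measured coregulators together had a median of 0.06 in males and -0.08 in females in the authors' deposited tables.

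Of the other inducible genes, Ldh, the lactate dehydrogenase gene first isolated as ImpL3, rose in males. The authors' deposited table gave it a log2 fold change of 2.74, with a recovered SE of 1.02 (adjusted p = 0.048). That list had medians of 0.23 over 10 genes in females and 0.09 over 9 in males in the authors' deposited tables. Genes of hormone synthesis, uptake and breakdown had 0 calls in either sex of the authors' deposited tables. At an unadjusted p under 0.05 by edgeR, 2 of them were higher and 0 lower in females, against 5.7% and 5.92% of all entries. In males 1 was higher and 0 were lower at that unadjusted p, against 11.5% and 15.3%. Medians of these hormone genes were 0.07 over 12 genes in females and 0.18 over 11 in males in the authors' deposited tables. Oatp74D, the importer that carries ecdysone into cells, is named after its values were seen. It had 0.39 in females (adjusted p = 0.17) and -0.17 in males (adjusted p = 0.29) in the authors' deposited tables, and the male minus female difference of -0.56 passed (SE 0.17, z test, adjusted p = 0.024). With a t distribution of 4 degrees of freedom the differences of Hr39, chinmo and Oatp74D did not pass (adjusted p = 0.092, 0.11 and 0.11).

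**Figure D4:**
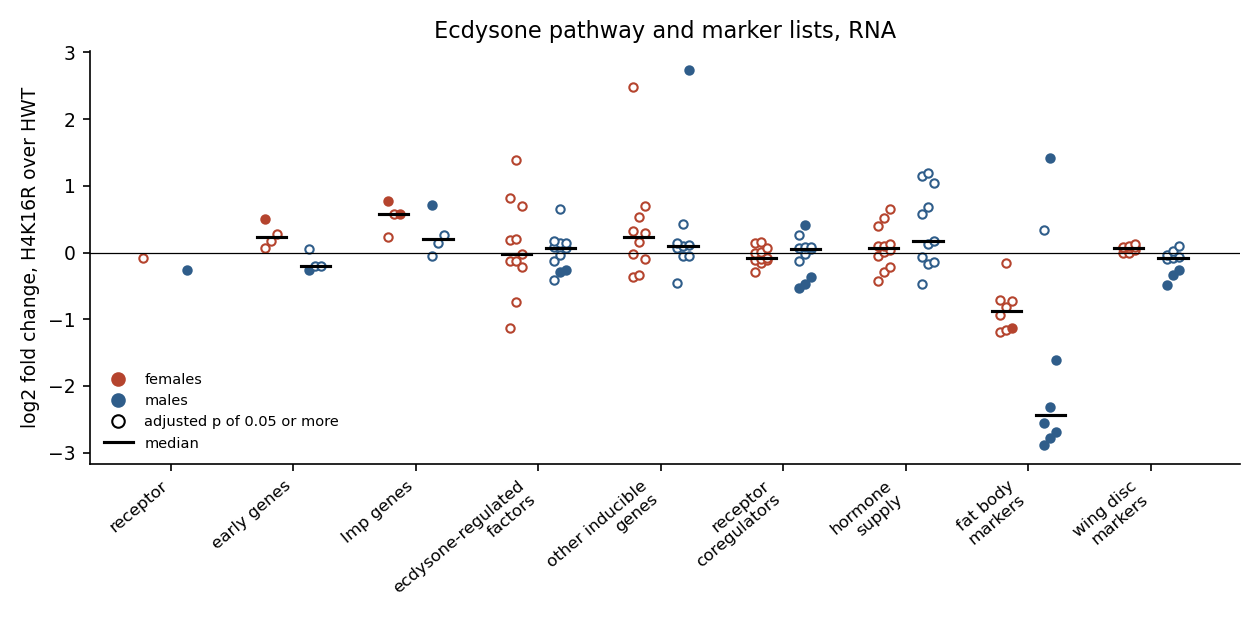
Log2 fold change (H4K16R over HWT, vertical axis) of each measured gene by list, for females (red) and males (blue). Filled points had an adjusted p under 0.05 in the authors' deposited tables, and black bars are list medians. The Imp genes have medians of 0.58 in females and 0.20 in males, and the fat body markers of -0.88 and -2.44.

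Markers of some other larval tissues were called in the same tables, mostly those of the fat body. The authors' deposited tables called 6 of 8 fat body markers lower and 1 higher in males, and 1 of 8 lower in females. Over all entries, 10.3% were lower and 5.35% higher in males, and 0.613% lower in females. The fat body medians were -2.44 in males and -0.88 in females in the authors' deposited tables. In males Lsp1alpha and Lsp1gamma, which encode larval serum proteins, had -2.88 and -2.79, the lipoprotein gene apolpp had -2.69 and the storage protein receptor gene Fbp1 had -2.56 in the authors' deposited table. Against these, Apoltp, which encodes the apolipoprotein of the lipid transfer particle, rose by 1.41 in males (adjusted p = 2.81e-04) and had -0.15 in females in the authors' deposited tables. FASN1, a fatty acid synthase gene, was the marker called lower in females, at -1.13, and had 0.33 in males in the authors' deposited tables, not called. Fbp1 and the salivary glue genes are themselves ecdysone-regulated in their own tissues. Of 5 measured glue genes, 0 passed in either sex of the authors' deposited tables, with medians of -2.89 in males and -0.95 in females. At an unadjusted p under 0.05 by edgeR, 0 glue genes were higher, 1 was lower in males and 0 in females. Of all entries, 15.3% were lower in males and 5.92% in females at that unadjusted p by edgeR.

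Hemocyte markers had 0 calls in either sex of the authors' deposited tables, with medians of -0.71 over 8 genes in males and -0.06 over 6 in females. At an unadjusted p under 0.05 by edgeR, 1 hemocyte marker was lower in males and 0 in females, against 15.3% and 5.92% of all entries. Of 4 tracheal markers in males, dysf rose by 0.45 and the X-linked pot fell by 0.67 in the authors' deposited table. Of 7 muscle precursor markers in males, Mlc2 fell by 1.37 and Ama by 0.41 in the authors' deposited table. Their medians were 0.12 and -0.11 in males and 0.03 and 0.14 in females in the authors' deposited tables. In females 0 members of either list were called. Over all entries, 5.35% were higher and 10.3% lower in males, and of X-linked entries 44.6% were lower. At an unadjusted p under 0.05 by edgeR, 3 muscle precursor markers and 0 tracheal ones were higher in females, against 5.7% of all entries.

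The wing disc markers had 3 lower of 9 in males, ct (-0.48), sd (-0.33) and ap (-0.26), and 0 of 9 in females in the authors' deposited tables. Of these, ct and sd are X-linked, where 44.6% of entries were lower in males and the median was -0.43, and ap is autosomal, where 3.39% were lower. In females 0 of the 9 passed an unadjusted p under 0.05 by edgeR. Medians were -0.09 and 0.07 in the authors' deposited tables. Tissue identity cannot be checked further, since the tables give no levels. The part of other tissues in the values of the ecdysone genes was not tested.

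Replication timing at the 10 genes was read from the authors' S/G1 values, where a high value marks early replication. Each gene's value is the mean over the windows of 100 kb, spaced by 10 kb, that overlap it (10 kb bins for yw), without an SD or n. No pair of the 10 genes shares a window. All 10 lay above the median of the large chromosome arms in each of 7 profiles. In HWT females of the H4K16R table they ran from 0.020 at usp to 0.074 at Eip75B on the log2 scale, against a median of 0.0145. In H4K16R females of the same table they ran from 0.053 at Eip78C to 0.11 at Eip74EF, against 0.0116. In HWT males they ran from 0.031 at ImpE2 to 0.13 at usp, against a median of 0.0261. In H4K16R males they ran from 0.026 at Eip78C to 0.13 at Eip75B, against 0.0183. In yw females they ran from 0.012 at ImpE3 to 0.10 at ImpE1, against a median of 0.0032. In the H3K9R table they ran from 0.060 to 0.13 in HWT females and from 0.087 to 0.13 in H3K9R females, against medians of 0.0484 and 0.0466. Tables were normalized separately, so levels are set beside their own median only.

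No gene shifted by 0.1 or more in either mutant. Few single windows reached that size, and a gene's value is a mean over windows, so 0 of 10 says little about smaller shifts. H4K16R minus HWT differences in females ran from -0.0064 at EcR to 0.054 at br, with 8 of 10 above 0. The difference at ImpE2, -0.0024, lay above 50.8% of those of single windows, so windows above 0 were a minority. The female profiles differed in spread, with interquartile ranges from -0.046 to 0.046 in HWT and from -0.071 to 0.064 in H4K16R. All 10 genes lay above the median, and whether other early windows also tended to differences above 0 was not tested. The count of 8 thus does not show a shift particular to these genes. In males they ran from -0.049 at ImpL2 to 0.057 at Eip75B, with 5 of 10 above 0. H3K9R minus HWT differences ran from -0.021 at ImpE2 to 0.040 at usp, with 7 of 10 above 0. Of all windows on the large arms, 1.95% were later and 0.785% earlier by at least 0.1 in H4K16R females. The shares were 0.745% and 1.12% in H4K16R males, and 0.8% and 1.4% in H3K9R females. Set against the differences of single windows, the gene means lay above 47.2% (EcR) to 90.9% (br) of them in H4K16R females. These ranges were 8.15% (ImpL2) to 93.7% (Eip75B) in H4K16R males and 30.0% (ImpE2) to 85.4% (usp) in H3K9R females.

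The timing differences of the genes called by RNA went in both directions. In females, where ImpE3, ImpE2 and Eip78C were called higher, their timing differences were 0.045, -0.0024 and 0.021. In males, ImpL2, called higher, had -0.049, while EcR and Eip74EF, called lower, had -0.00088 and 0.0032. The X-linked usp had 0.043 in females and -0.047 in males, and br 0.054 and 0.0054. The tables give 1 value per group, so no error is attached to these differences.

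**Figure D5:**
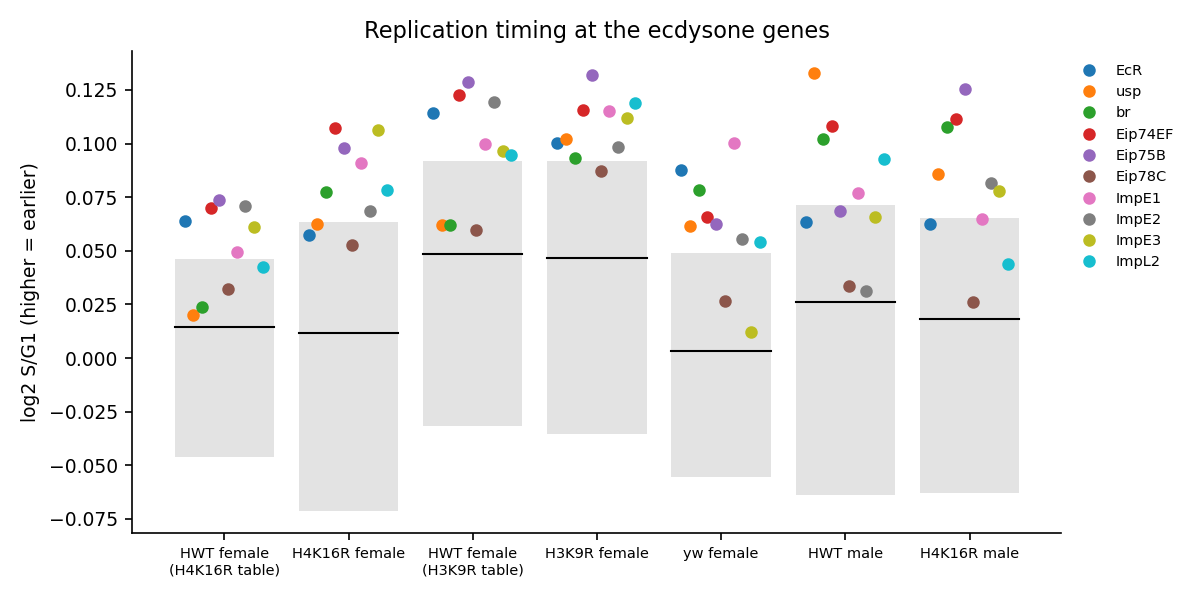
Mean log2 S/G1 of the windows over each of the 10 genes (vertical axis, higher is earlier) in 7 profiles, with the HWT female profile as given in each of 2 tables. Grey boxes span the interquartile range and black lines the median of all windows on the large arms. All 10 points lie above the black line in every profile.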

How the data were processed

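The RNA kit was stranded and depleted ribosomal RNA, per the labels' protocols; nothing says whether counting used strand. The build was dm6 and the tools edgeR, limma, TopHat, Bowtie2 2.3.2, Cufflinks 2.2.1, bedtools and SAMtools 1.6, per the submitters' processing notes, which state no roles. The values deposited by the authors are log2 fold changes with adjusted p-values per interval and sex, per the file headers, so the planned fits to single libraries could not be run and depth is unknown. Replication timing was deposited by the authors as 1 value per group, a linear S/G1 ratio in the female H4K16R table, of which log2 was taken here, and values on a log scale read as log2 in the others. How the 2 S libraries of a group were combined is not stated.

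Entries were matched to RefSeq Release 6 genes by reciprocal overlap above 0.9. Unadjusted p were recovered by reversing the adjustment, taken as Benjamini-Hochberg; ties raise the p of the 9 genes by at most 1.75% in females and 0.063% in males. Intervals are 1.96 SE. The sexes, whose libraries differ, were compared by a z test with Benjamini-Hochberg adjustment over all 8846 genes. Python 3.11.15, numpy 2.4.6, pandas 2.3.3 and scipy 1.17.1 were used, and the steps were tested on simulated data. Members and lists were chosen with earlier results of these data known. Named genes are all members, the called genes of each list (up to 4 by size) and entries that overlap a member; Oatp74D, chinmo, FASN1, Apoltp and zfh1 were named after their values were seen. Alternatives were other thresholds, Holm adjustment, the longest overlapping entry, median centring, a t distribution and other timing windows.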

Additional observations from a re-analysis of the deposited data

Results flagged for a closer look

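Effects of H4K16R on members of any list that differed between the sexes by the z test are given here. They are male minus female log2 fold changes, 15 in all. By this test a negative difference passed for 5.69% of all 8846 genes with an entry in both tables and a positive one for 2.18%. For genes of the large autosomes these shares were 1.58% and 2.5%. Among the ecdysone genes, ImpE3 had -0.63 (adjusted p = 0.038), with 0.78 in females and 0.15 in males. In the pathway lists, Hr39 had -0.49 (adjusted p = 0.010), Oatp74D -0.56 (adjusted p = 0.024) and chinmo 1.40 (adjusted p = 0.020). Hsc70-4 had 0.49 (adjusted p = 0.0096). The X-linked coregulators Smr, nej and trr had -0.44, -0.42 and -0.47 (adjusted p = 0.025, 0.049 and 0.042), and the X-linked markers ct, sd and pot -0.59, -0.40 and -0.61 (adjusted p = 0.0074, 0.015 and 0.0028), where the median of X-linked genes was -0.44. The autosomal wing gene ap had -0.34 (adjusted p = 0.046) and the muscle precursor marker zfh1 -0.61 (adjusted p = 0.027). The fat body markers FASN1 and Apoltp had 1.47 and 1.56 (adjusted p = 3.75e-04 and 0.035). With a t distribution of 4 degrees of freedom FASN1 passed (adjusted p = 0.044) and the other 14 did not (adjusted p from 0.078 to 0.145).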

How the results depend on the processing

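No paired analysis was possible because the RNA tables give 1 fold change per entry and no value per library, so neither a replicate block nor leaving out a library could be run. At an adjusted p of 0.01, 1 of the 9 ecdysone genes stayed higher in females and 0 were lower in males, while the pathway lists had 1 higher and 3 lower in males. At an adjusted p of 0.1 the lists had 1 higher in females. Holm adjustment left 1 gene higher in females, 0 higher and 0 lower in males, and 0 higher and 1 lower in the male lists. A minimum log2 fold change of 0.5 left 2 genes higher in females, without Eip78C, 0 genes lower in males and 1 list gene in each direction. With the autosomal median of 0.08 taken off in males, Eip78C turned from 0.059 to -0.018, neither called, br passed at -0.27, and the male lists had 1 higher. The number of genes whose H4K16R effect was lower in males than in females went from 1 to 0 with the t distribution. It went to 3 with the median of the X or of the pooled large autosomes taken off. Timing counts stayed at 0 in all 3 comparisons with the window nearest the gene start and with profile medians taken off. They were also 0 at a difference of 0.2, which the 0 at 0.1 had fixed in advance. The cause of these changes was not tested. Shares of all entries called at these other settings were not counted. Gains and losses of calls given here thus describe these genes and lists only. By the entry with the longest overlap, which gives usp the joint entry with Actn, 3 genes were lower in males. Depth per library is unknown, so no limit of detection can be given.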

Other observations

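Named genes within 50 kb of the called ecdysone genes are given here after their values were seen. Around ImpE3, 1 of 13 was called higher in females in the authors' deposited table, CG2747, whose entry contains ImpE3. Around ImpE2 in females 0 of 8 were called, and around Eip74EF in males 0 of 15. At an unadjusted p under 0.05, recovered from the authors' edgeR values, these counts were 0 and 3. Of 19 around Eip78C in females, AcCoAS, which encodes acetyl coenzyme A synthase, was lower at -1.45 in the authors' deposited table (adjusted p = 0.048). Of 24 around ImpL2 in males, the cuticle protein gene Cpr64Ac was higher at 2.27 and CG1316 lower at -0.31 in the authors' deposited table. Of 16 around EcR in males, the neuropeptide receptor gene CCHa2-R was higher at 1.70 and bin3 lower at -0.32 in the authors' deposited table. Over all entries, 0.362% were called higher and 0.613% lower in females, and 5.35% and 10.3% in males. On the large autosomes in males the shares were 6.09% and 3.39%, and the counts around ImpL2 and EcR lie near these. At an unadjusted p under 0.05 by edgeR, 5.7% of all entries were higher and 5.92% lower in females, and 11.5% and 15.3% in males.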
